A study of Homo sapiens with 24 samples.

Results

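PANC1, an established human pancreatic ductal adenocarcinoma cell line, was given either SR4 at 5 µM or lonidamine at 300 µM for 24 h, and the RNA of the cells was sequenced. The comparison described here sets the 3 SR4 libraries directly against the 3 lonidamine libraries, 6 of the 24 libraries of the series, and asks which genes told the 2 single compounds apart. The members were chosen by their labels alone, so no measured value decided which library stood on which side. The 3 PANC1 vehicle libraries are given beside them as the common background, and the 6 corresponding libraries of BXPC3, a second pancreatic cancer line, are used to ask whether the same genes separated the compounds there. All cells were kept in low-glucose medium with serum, and the labels give no genetic change in any group. Nothing in the labels says that the 3 libraries of a group came from separate cultures, so p-values measure the spread between these libraries, which may be technical. A combination of both compounds was also sequenced, and its libraries enter the filter on low counts, the scaling, the mean levels by which genes were chosen and the estimate of that spread, but no comparison. The 2 doses differ, so each difference below is one between a dose of SR4 and a dose of lonidamine, and no dose was matched.

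Both compounds act on the energy supply of the cell, by different routes. SR4, a compound referred to by its code name, is an uncoupler of mitochondria: it lets protons return into the mitochondrial matrix without making ATP, so respiration runs on while its yield falls. Lonidamine inhibits the carrier that brings pyruvate into mitochondria, the monocarboxylate transporters that export lactate, and succinate dehydrogenase (complex II), and its first described target was hexokinase. Pancreatic cancer cells depend heavily on glycolysis, amino acid supply and lipid synthesis, and cells short of ATP or amino acids switch on the integrated stress response, in which the transcription factor ATF4 raises genes of amino acid uptake and synthesis.

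Total counts per library ran from 9747389 to 9826599 with SR4 and from 10380298 to 11822495 with lonidamine. These ranges do not overlap, levels below are scaled for it, and the part of depth in the results was not tested. Over the genes tested, SR4 and lonidamine libraries lay 0.613 to 0.641 apart as the root mean square of their log2 differences, against 0.272 to 0.298 among SR4 libraries and 0.245 to 0.271 among lonidamine libraries. Each compound lay further from vehicle, with medians of 0.811 for SR4 and 0.780 for lonidamine, than from the other compound. The cells matched their label as far as their markers go. KRT18, KRT8 and KRT19, keratins of ductal epithelium, stood at 1079, 1905 and 701 CPM (counts scaled by library size) with vehicle. None of 12 acinar and 8 endothelial markers was high enough to test, and of 12 immune, 10 fibroblast and 10 endocrine markers 2, 4 and 2 were. Both endocrine markers, CHGB and SYP, were higher with lonidamine, and the summed level of that list was 10.4 to 11.9 CPM with SR4 and 17.8 to 19.7 CPM with lonidamine. Their part in the results was not tested. CD68, a lysosomal protein of macrophages that other cells also make, gave 203 CPM with SR4 and 142 CPM with lonidamine. It made up most of the summed level of the immune list, which was 188 to 222 CPM with SR4 and 142 to 145 CPM with lonidamine.

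Of 12514 genes tested in PANC1, 4175 were higher with SR4, or 33.4%, and 4111 were higher with lonidamine, or 32.9%, by edgeR's quasi-likelihood test at a Benjamini-Hochberg adjusted p of 0.05. A difference of at least 2-fold was reached by 589 genes on the SR4 side (4.71%) and by 518 on the lonidamine side (4.14%). The median log2 difference over all genes was -0.0022, and the middle 90% lay between -0.94 and 0.98. Without regard to size, the 3 SR4 libraries all stood above the 3 lonidamine libraries in 34.2% of genes and all below them in 33.7%. Most genes therefore passed the test in one direction or the other, and counts in gene lists are read against these shares. Differences are given as SR4 minus lonidamine on the log2 scale throughout, so a positive value means higher with SR4. Levels are CPM, and a value after ± is the SD of 3 libraries.

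Leaving aside genes whose log2 CPM averaged under 2 across the 12 PANC1 libraries, the widest gap on the SR4 side was that of CTGF, a secreted matrix protein and a textbook target of the transcriptional coactivator YAP (chr6:131948176-131951373, GRCh38). Its levels were 2544, 2673 and 2378 CPM in the 3 SR4 libraries and 258, 292 and 261 CPM in the 3 lonidamine libraries. All SR4 libraries thus stood far above all lonidamine libraries, which lay a little above the vehicle mean of 232 CPM. The fitted ratio was 9.37-fold (log2 difference 3.23, SE 0.047, adjusted p = 8.89e-28). KRT80, an epithelial keratin (chr12:52168996-52192000), was separated as widely but from the other side. It stood at 218, 201 and 199.97 CPM with SR4, somewhat below its vehicle mean of 244 CPM, and at 25.3, 21.7 and 19.99 CPM with lonidamine (log2 difference 3.21, SE 0.061, adjusted p = 3.31e-25). TGFB2, a ligand of the TGF-beta receptors, was high in the SR4 libraries with 166, 167 and 158 CPM, low in the lonidamine libraries with 20.8, 18.2 and 19.7 CPM, and between them with vehicle at 91.8 CPM. PLK2, a stress-responsive kinase, had the pattern of TGFB2, with 447, 485 and 455 CPM under SR4, 60.2, 60.6 and 61.5 CPM under lonidamine and 142 CPM with vehicle. Of the 10 largest differences on this side, PIM1 (a survival kinase), DUSP8 (a phosphatase of stress kinases) and the antisense transcript SLFNL1-AS1 were also above vehicle with SR4. ELF3 (an epithelial transcription factor), DHRS3 (a retinaldehyde reductase) and GPRC5B (an orphan receptor) were below vehicle with both compounds and lower with lonidamine. ELF3 had 14.99 ± 0.627 CPM with SR4, 1.75 ± 0.383 CPM with lonidamine and 22.2 CPM with vehicle.

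On the lonidamine side the smallest p belonged to CYP1B1, a monooxygenase known as a target of the aryl hydrocarbon receptor (chr2:38067507-38109902). Its levels were 66.8, 74.4 and 74.8 CPM with SR4 and 421, 409 and 416 CPM with lonidamine, around a vehicle mean of 227 CPM. The compounds therefore stood on opposite sides of vehicle, 5.77-fold apart (log2 difference -2.53, SE 0.053, adjusted p = 4.55e-24). ITGA2, the collagen-binding integrin alpha 2 chain, gave the same picture at a higher level, with 111, 121 and 126 CPM against 476, 531 and 562 CPM and 199 CPM in vehicle (log2 difference -2.13, SE 0.058, adjusted p = 1.02e-21). CX3CL1, a membrane-bound chemokine, was close to its vehicle mean of 24.5 CPM with SR4 (25.4 ± 1.96 CPM) and at 111 ± 7.64 CPM with lonidamine. PCLO, a scaffold protein of presynaptic zones, PLIN4, a lipid droplet coat protein, and NKX6-2, a homeobox factor, had large ratios from low levels. PCLO had 4.19 ± 0.188 CPM with SR4 and 29.9 ± 6.003 CPM with lonidamine, and PLIN4 had 5.28 ± 1.24 and 30.5 ± 2.80 CPM. HAS3, a hyaluronan synthase, and BAIAP2-AS1, an antisense RNA, were separated by a low value with SR4. HAS3 had 2.69 ± 0.660 CPM with SR4, 17.5 ± 0.449 CPM with lonidamine and 14.2 CPM with vehicle, and BAIAP2-AS1 had 8.38 ± 0.991, 42.5 ± 1.12 and 42.6 CPM. Whether counting used strand is not stated, so reads of an antisense gene and of its partner cannot be told apart.

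**Figure D1:**
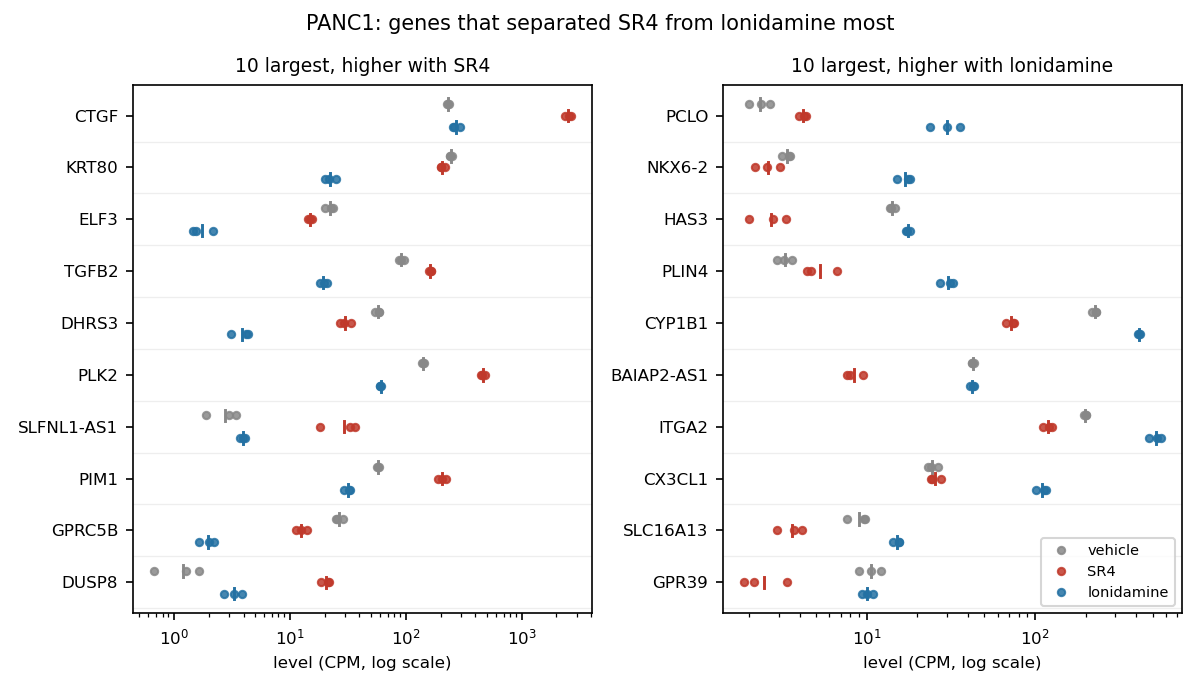
Levels in CPM on a log axis of the 10 genes with the largest differences in each direction, with 1 point per PANC1 library (3 per group) and a vertical tick at each group's mean. SR4 and lonidamine points do not overlap in any of the 20 genes, as the rule for choosing them required, while the vehicle points lie now by one compound, now by the other.

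Targets of YAP, and the genes that cells switch on within minutes of a growth signal, were more often higher with SR4 than with lonidamine. Of 20 YAP targets tested, 13 were higher with SR4 and 2 with lonidamine, with a median log2 difference of 0.41. CYR61, the matrix protein closest to CTGF, stood at 3055, 3224 and 2851 CPM with SR4 and at 646, 679.7 and 663 CPM with lonidamine. The lonidamine libraries lay just above the vehicle mean of 605 CPM, the SR4 libraries far above it, and the fitted ratio was 4.59-fold (log2 difference 2.20, SE 0.038, adjusted p = 6.35e-26). AMOTL2, a scaffold that feeds back on YAP, was above vehicle (138 CPM) with SR4 at 260.4 ± 9.33 CPM and below it with lonidamine at 79.6 ± 6.01 CPM. NT5E, the ectonucleotidase CD73, went the other way within the list, with 193 ± 5.38 CPM under SR4 and 481 ± 25.2 CPM under lonidamine. Among 21 immediate early genes 13 were higher with SR4 and 3 with lonidamine. DUSP1, a phosphatase that ends stress kinase signalling, had 230.3, 231 and 219 CPM with SR4 against 47.3, 48.8 and 49.6 CPM with lonidamine (log2 difference 2.22, SE 0.047, adjusted p = 4.78e-24). JUNB and FOSL1, partners in the AP-1 factor, were 5.48-fold and 2.46-fold higher with SR4. Each of these 3 genes was above vehicle with SR4 and below it with lonidamine, where vehicle means were 71.7, 22.2 and 310.2 CPM. Of 15 genes known as feedback targets of the kinase ERK, however, 5 were higher with SR4, FOSL1 among them, and 8 with lonidamine. SPRY4, an inhibitor of receptor tyrosine kinase signalling, had 49.00 ± 4.71 CPM with SR4 and 119.6 ± 1.33 CPM with lonidamine, and its vehicle mean of 50.6 CPM was close to the SR4 value. In the insulin-like growth factor system, the adaptor IRS2 was 4.001-fold higher with SR4 (124 ± 2.91 against 30.96 ± 1.77 CPM), and the receptor IGF2R was 1.91-fold higher with lonidamine (952 ± 117 against 498 ± 24.3 CPM).

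**Figure D2:**
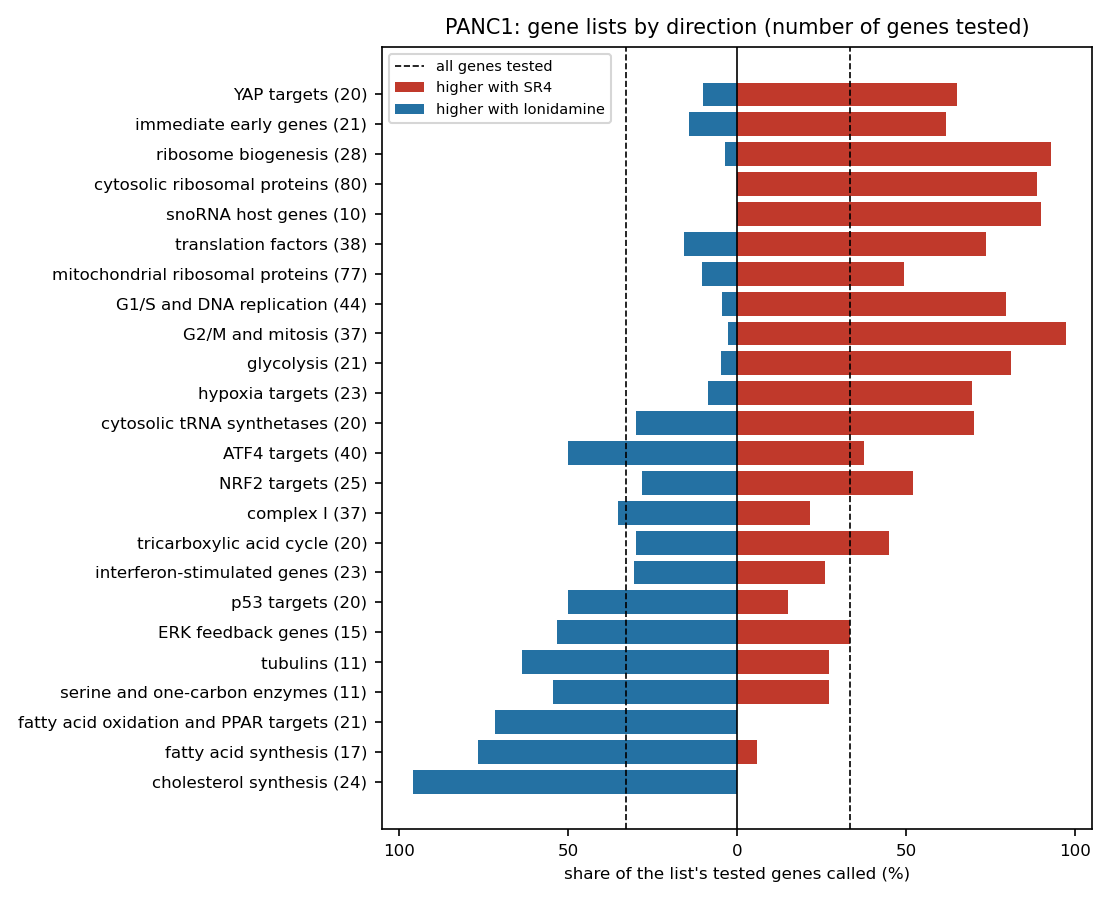
Share of tested genes in each of 24 gene lists that were higher with SR4 (right, red) or higher with lonidamine (left, blue) in PANC1, with the number of genes tested in brackets. Dashed lines mark the shares over all genes, 33.4% and 32.9%, and lists on ribosome production and mitosis fill the right side while cholesterol synthesis fills the left.

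Genes for making ribosomes were mostly higher with SR4. In the ribosome biogenesis list 26 of 28 genes were higher with SR4 and 1 with lonidamine, and the median log2 difference was 0.50. Against vehicle, which both comparisons share, the list's median was 0.32 with SR4 and -0.28 with lonidamine. MYC, the transcription factor that drives ribosome production, stood at 258, 274 and 259 CPM with SR4 and 68.9, 72.9 and 73.1 CPM with lonidamine. SR4 libraries were well above the vehicle mean of 86.99 CPM and lonidamine libraries were below it (log2 difference 1.88, SE 0.041, adjusted p = 1.0e-23). BOP1, which processes the large ribosomal subunit's RNA, and POLR1E, a subunit of RNA polymerase I, were 2.01-fold and 1.80-fold higher with SR4. Host genes of small nucleolar RNAs, whose introns release guides for ribosomal RNA modification, were higher with SR4 in 9 of 10 cases and higher with lonidamine in none. SNHG1 had 165, 161 and 169 CPM with SR4 and 49.3, 42.8 and 41.8 CPM with lonidamine, the second group lying near the vehicle mean of 48.97 CPM. GAS5 was above its vehicle mean of 52.7 CPM with both compounds, at 312 ± 4.48 CPM with SR4 and 149.9 ± 3.37 CPM with lonidamine.

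Cytosolic ribosomal proteins followed with small differences. Of 80 tested, 71 were higher with SR4 and none with lonidamine, with a median log2 difference of 0.29 and a largest one of 1.02. RPL3 stood at 1226 ± 50.2 CPM with SR4 and 799 ± 12.8 CPM with lonidamine. Translation factors gave 28 of 38 higher with SR4 and 6 with lonidamine, led by EIF4B, an activator of the helicase that opens mRNA leaders (932 ± 17.9 against 544 ± 1.47 CPM). A test against a change of 1.5-fold instead of 0 left 925 of all 12514 genes higher with SR4 and 797 higher with lonidamine. Counts at 1.5-fold here and below are read against these. In that test 1 of 80 ribosomal proteins and 1 of 38 translation factors kept a call on the SR4 side. So did 8 of 28 ribosome biogenesis genes and 6 of 10 snoRNA host genes. Short genes as a class leaned to the same side, since the 3129 tested genes that the files give the shortest lengths had a median log2 difference of 0.088 and the 3129 longest -0.099, and the part of length in the ribosomal protein result was not tested.

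Nuclear genes for mitochondria differed between classes in how they were called. Among 77 mitochondrial ribosomal proteins 38 were higher with SR4 and 8 with lonidamine. Their median log2 difference was small, at 0.17, and 1 of them was at least 2-fold higher with SR4. Among 12 regulators of mitochondrial biogenesis 7 were higher with SR4 and 1 with lonidamine, with a median of 0.48. POLRMT, the mitochondrial RNA polymerase, stood at 68.3, 72.7 and 68.6 CPM with SR4 and at 37.1, 35.3 and 32.9 CPM with lonidamine. Lonidamine values were near the vehicle mean of 38.2 CPM and SR4 values were well above it (log2 difference 0.996, SE 0.060, adjusted p = 3.99e-14). Complex I had 8 genes higher with SR4 and 13 with lonidamine of 37, complexes III and IV had 7 and 6 of 21, and ATP synthase had 6 and 5 of 17, and none of these passed the test against 1.5-fold. UCP2, an inner membrane carrier of the uncoupling protein family, had 159, 159.6 and 148 CPM with SR4 and 59.8, 59.6 and 56.3 CPM with lonidamine, on either side of 80.2 CPM with vehicle (log2 difference 1.41, SE 0.052, adjusted p = 6.95e-19). IDH1, the cytosolic isocitrate dehydrogenase, was the reverse, with 119.6, 115 and 132 CPM and 367, 362 and 352 CPM. The SR4 libraries overlapped the vehicle libraries, whose mean was 113 CPM, and lonidamine was 2.94-fold above SR4. IDH2, its mitochondrial counterpart, was 1.84-fold higher with SR4. No gene of the mitochondrial genome is in the tables.

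Of 9 genes tested for proteins that lonidamine is known to act on, 4 were higher with SR4 and 1 with lonidamine. The pyruvate carrier subunits MPC1 and MPC2 and the lactate transporters SLC16A1 and SLC16A3 did not pass the test. SLC16A3 stood at 147 ± 10.2 CPM with SR4 and 146 ± 1.65 CPM with lonidamine, both under the vehicle mean of 355 CPM, with a log2 difference of 0.0038 (SE 0.047). MPC1 differed by 0.091 (SE 0.10) and SLC16A1 by -0.065 (SE 0.054). MPC2 differed by -0.18 (SE 0.095, adjusted p = 0.0883 by edgeR's quasi-likelihood test), and it passed when SR4 replicate 2 or lonidamine replicate 3 was left out, with adjusted p = 0.0109 and 0.0102, and with no filter on low counts, with adjusted p = 0.0178. SDHC, a membrane anchor of complex II, was higher with lonidamine (73.1 ± 3.75 against 109.7 ± 1.24 CPM). HK2, a hexokinase that binds mitochondria, was the 1 gene of the list that also passed the test against 1.5-fold. It had 92.9, 96.4 and 95.7 CPM with SR4 and 26.3, 31.7 and 28.9 CPM with lonidamine, from a vehicle mean of 6.09 CPM, so both compounds were above vehicle and SR4 was 3.27-fold above lonidamine (log2 difference 1.71, SE 0.063, adjusted p = 7.16e-19).

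Glycolysis genes were mostly higher with SR4. Of 21 enzymes and transporters tested, 17 were higher with SR4 and 1 with lonidamine, with a median log2 difference of 0.38. The list's median against vehicle was 0.14 with SR4 and -0.30 with lonidamine. SLC2A1, the glucose transporter GLUT1, had 298, 323 and 282 CPM with SR4, 142, 159.5 and 145 CPM with lonidamine and 55.5 CPM with vehicle. LDHA, which turns pyruvate into lactate, was below its vehicle mean of 1582 CPM with both compounds, at 1073 ± 82.5 CPM with SR4 and 707 ± 39.8 CPM with lonidamine (log2 difference 0.60, SE 0.046, adjusted p = 4.56e-12). In the test against 1.5-fold 3 genes of the list passed.

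Targets of the hypoxia-inducible factors, a set that overlaps with glycolysis, were higher with SR4 in 16 of 23 cases and higher with lonidamine in 2. ADM, the peptide hormone adrenomedullin, stood at 546, 600.4 and 515 CPM with SR4 and at 136, 149 and 133 CPM with lonidamine. The lonidamine libraries lay near the vehicle mean of 150.3 CPM and the SR4 libraries far above it (log2 difference 1.99, SE 0.052, adjusted p = 4.70e-22). BHLHE40, a transcriptional repressor, was above its vehicle mean of 94.98 CPM with SR4 at 229 ± 18.2 CPM and below it with lonidamine at 57.6 ± 3.93 CPM. NDRG1, a stress protein, and VEGFA, the vascular growth factor, were above vehicle with both compounds and 2.29-fold and 1.62-fold higher with SR4. The promoters of 3 genes from these lists are shown because they hold the core that hypoxia-inducible factors bind, ACGTG on either strand, in the 250 bases before a transcription start in RefSeq on GRCh38.p14. The core is in 18.5% of the 35116 promoter windows of that table and in 15 of the 26 windows (57.7%) that matched 19 genes of the hypoxia list. The windows of ADM and SLC2A1, also named above, do not hold it. Capitals mark the core, which is also part of every CACGTG. The windows are HK2 at chr2:74833877-74834126, LDHA at chr11:18394313-18394562 and BHLHE40 at chr3:4979187-4979436, all on the plus strand and written 5′ to 3′.
HK2: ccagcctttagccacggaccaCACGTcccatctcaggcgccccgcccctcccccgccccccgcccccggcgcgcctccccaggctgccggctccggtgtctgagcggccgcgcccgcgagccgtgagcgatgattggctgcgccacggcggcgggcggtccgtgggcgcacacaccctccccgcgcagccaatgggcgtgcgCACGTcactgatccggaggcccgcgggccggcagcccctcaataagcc
LDHA: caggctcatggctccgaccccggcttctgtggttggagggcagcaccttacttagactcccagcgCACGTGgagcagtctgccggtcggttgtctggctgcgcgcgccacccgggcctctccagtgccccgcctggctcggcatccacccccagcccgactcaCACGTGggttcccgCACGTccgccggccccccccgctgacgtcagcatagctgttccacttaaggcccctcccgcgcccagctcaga
BHLHE40: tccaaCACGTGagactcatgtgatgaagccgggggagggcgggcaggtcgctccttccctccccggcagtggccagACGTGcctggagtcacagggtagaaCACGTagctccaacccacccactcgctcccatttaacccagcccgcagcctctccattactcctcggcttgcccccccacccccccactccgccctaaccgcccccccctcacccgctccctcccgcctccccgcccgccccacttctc
HK2 held 2 matches in this window, LDHA 5 and BHLHE40 4, counting both strands of a palindrome. HK2 and LDHA each have a second start in the table that is not printed, with 4 matches for HK2 and no match for LDHA. A match of these letters is a description of the sequence and was not tested for binding.

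Cholesterol synthesis genes were higher with lonidamine. Of 24 genes tested, 23 were higher with lonidamine and none with SR4, with a median log2 difference of -0.90, and 17 of them also passed the test against 1.5-fold. Against vehicle the list's median was -1.10 with SR4 and -0.17 with lonidamine. CYP51A1, a demethylase of the sterol branch, had 130.2, 134 and 131 CPM with SR4 and 276, 283 and 279 CPM with lonidamine. Lonidamine libraries were above the vehicle mean of 236 CPM, and SR4 libraries were below it and 2.12-fold under lonidamine (log2 difference -1.08, SE 0.042, adjusted p = 1.83e-18). SQLE, which oxidizes squalene, and HMGCS1, an enzyme at the start of the pathway, were 2.05-fold and 1.97-fold higher with lonidamine. HMGCS1 had 47.9, 47.6 and 50.02 CPM with SR4, 92.4, 97.8 and 95.8 CPM with lonidamine and 129 CPM with vehicle, so both compounds stood below vehicle and SR4 further. INSIG1, which retains the sterol-regulated SREBP factors in the endoplasmic reticulum, stood at 41.1 ± 2.87 CPM with SR4, 96.7 ± 4.70 CPM with lonidamine and 120.1 CPM with vehicle.

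Lipid genes around this pathway leaned the same way. In fatty acid synthesis 13 of 17 genes were higher with lonidamine and 1 with SR4. ACACA, the acetyl-CoA carboxylase that commits carbon to fatty acids, had 89.4 ± 2.52 CPM with SR4, 188 ± 12.1 CPM with lonidamine and 233 CPM with vehicle (log2 difference -1.07, SE 0.049, adjusted p = 1.10e-16). SCD, which makes fatty acids unsaturated, was 1.52-fold higher with lonidamine. Fatty acid oxidation and PPAR targets gave 15 of 21 higher with lonidamine and none with SR4, but by small steps, since 1 passed the test against 1.5-fold. CPT1A, which admits fatty acids to mitochondria, differed by -0.33 (SE 0.035). ABCA1, the cholesterol exporter, was low everywhere and higher with SR4 (6.32 ± 0.862 CPM against 1.43 ± 0.175 CPM).

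Genes of cell division were lower than vehicle with both compounds, and further down with lonidamine by their list medians. In the G2/M list 36 of 37 genes were higher with SR4 than with lonidamine and 1 was lower. The medians against vehicle were -0.81 with SR4 and -1.77 with lonidamine, and the median difference between the compounds was 0.88. ANLN, a protein of the contractile ring, stood at 499, 506 and 485 CPM with SR4 and 132, 158 and 148 CPM with lonidamine, from 685 CPM with vehicle (log2 difference 1.76, SE 0.046, adjusted p = 4.70e-22). TOP2A, the topoisomerase that untangles chromosomes, had the same order, with 973 CPM in vehicle, 546 ± 5.43 with SR4 and 246 ± 10.9 with lonidamine. G1/S and DNA replication genes gave 35 of 44 higher with SR4 and 2 with lonidamine, with a median of 0.59. MCM5 and MCM7, subunits of the replicative helicase, were 2.75-fold and 2.46-fold higher with SR4. In bulk RNA, fewer dividing cells and less of these RNAs per cell cannot be told apart. CDKN1A, the cyclin-dependent kinase inhibitor p21, was below vehicle (47.9 CPM) with SR4 at 30.3 ± 1.73 CPM and above it with lonidamine at 66.4 ± 0.280 CPM (log2 difference -1.13, SE 0.060, adjusted p = 2.09e-15). CCND1, cyclin D1, was below vehicle with both and 1.20-fold higher with SR4. Of 20 p53 targets 10 were higher with lonidamine and 3 with SR4, among the latter GADD45A, a stress protein that ATF4 can also raise, at 225 ± 15.6 against 51.5 ± 3.70 CPM.

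The list of ATF4 targets had medians well above vehicle with both compounds, and its members differed between the compounds in both directions. The 40 ATF4 targets had medians of 2.08 with SR4 and 2.19 with lonidamine over the shared vehicle. ATF4 itself did not pass between the compounds (559 ± 6.16 CPM with SR4, 577 ± 3.39 CPM with lonidamine, 156 CPM with vehicle, log2 difference -0.045, SE 0.035). Between the compounds 15 of the targets were higher with SR4 and 20 with lonidamine. ATF3, a repressor among the first targets of ATF4, had 398, 409.9 and 406 CPM with SR4 and 84.4, 87.9 and 84.3 CPM with lonidamine. Vehicle was at 7.84 CPM, so both were raised and SR4 stood 4.73-fold above lonidamine (log2 difference 2.24, SE 0.041, adjusted p = 1.40e-25). TRIB3, a pseudokinase, had 539.9, 566 and 541 CPM and 258, 258 and 263 CPM in the same order. DDIT3, the factor CHOP, and PPP1R15A, which reverses the block of translation, were 1.71-fold and 2.56-fold higher with SR4. FGF21, a stress hormone, had 40 counts over the 3 SR4 libraries, 3 over the 3 lonidamine libraries and 0 with vehicle, and no ratio is given.

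In the list of serine and one-carbon enzymes 3 of 11 were higher with SR4 and 6 with lonidamine. PSAT1, PHGDH and PSPH, the 3 enzymes that make serine from a glycolytic intermediate, were 1.75-fold, 1.66-fold and 1.79-fold higher with lonidamine. PSAT1 stood at 265, 269 and 282 CPM with SR4 and at 467, 485 and 477 CPM with lonidamine, both above 101 CPM in vehicle (log2 difference -0.81, SE 0.038, adjusted p = 1.62e-16). SLC7A5, the importer of large neutral amino acids, was above vehicle (528 CPM) with lonidamine at 881 ± 17.7 CPM and not with SR4 at 492 ± 1.67 CPM. SESN2, a sensor that restrains the growth kinase mTORC1, had 133 ± 2.68 CPM with SR4 and 192 ± 3.25 CPM with lonidamine. ASNS, the asparagine synthetase often used to read out ATF4, differed little, by 0.19 (SE 0.041) in favour of SR4. Cytosolic aminoacyl-tRNA synthetases all passed, 14 of 20 higher with SR4 and 6 with lonidamine. AARS, for alanine, had 823 ± 11.3 against 502 ± 2.34 CPM, and IARS, for isoleucine, had 327 ± 8.66 against 642 ± 2.004 CPM. In the endoplasmic reticulum, 13 of 24 chaperone and degradation genes were higher with SR4 and 6 with lonidamine. HSPA5, the chaperone BiP, stood at 6888, 6825 and 6802 CPM with SR4, 3289, 3465 and 3457 CPM with lonidamine and 767 CPM with vehicle (log2 difference 1.01, SE 0.029, adjusted p = 2.16e-21). HYOU1, a partner of BiP, was the reverse at 711 ± 5.15 and 1138 ± 20.6 CPM.

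**Figure D3:**
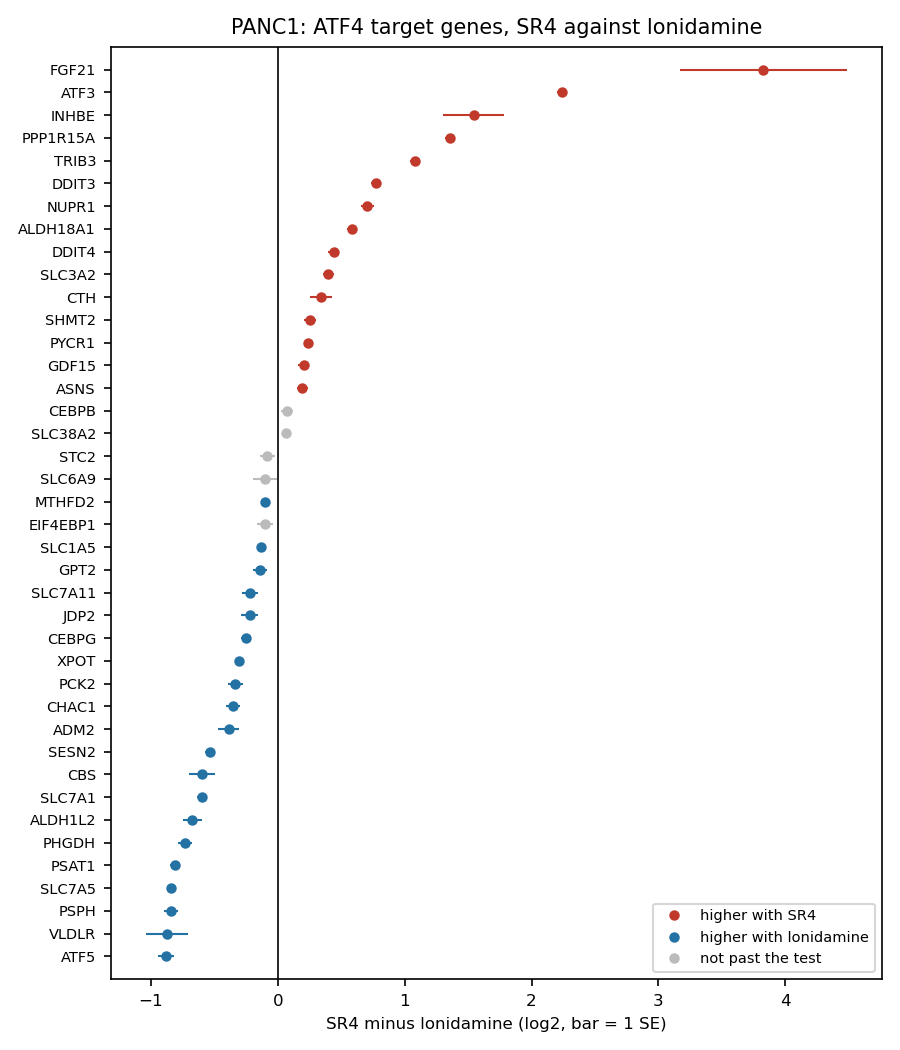
SR4 minus lonidamine differences on the log2 scale for the 40 ATF4 targets tested in PANC1, each point with a bar of 1 SE, coloured by call. 15 genes lie to the right (higher with SR4, with FGF21 on very few counts and a wide bar), 20 to the left, and 5 did not pass the test.

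The promoter of ATF3 is shown because it holds TGATGNAA, the letters of the composite site of ATF4 and C/EBP partners. They are in 3.14% of all windows and in 7 of 48 windows (14.6%) that matched 31 ATF4 targets. Of other genes named with the ATF4 targets, FGF21 and ASNS hold them in 1 window each. The windows of TRIB3, DDIT3, PPP1R15A, PSAT1, PHGDH, SLC7A5 and SESN2 do not, and binding was not tested. The ATF3 window is chr1:212565157-212565406 on the plus strand, the first of 2 starts in the table, 250 bases before the start and 5′ to 3′, with the match in capitals. The window of the other ATF3 start holds no match.
ATF3: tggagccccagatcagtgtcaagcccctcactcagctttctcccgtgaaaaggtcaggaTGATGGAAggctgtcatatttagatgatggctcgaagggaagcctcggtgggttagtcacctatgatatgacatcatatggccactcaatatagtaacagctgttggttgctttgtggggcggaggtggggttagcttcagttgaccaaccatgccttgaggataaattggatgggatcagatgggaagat

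Of 6 genes tested in the aryl hydrocarbon receptor list, CYP1B1 among them, 5 were higher with lonidamine. TIPARP, a mono-ADP-ribosyltransferase, stood at 61.4, 63.9 and 56.8 CPM with SR4 and 111, 119.8 and 114 CPM with lonidamine, both above the vehicle mean of 37.6 CPM (log2 difference -0.92, SE 0.055, adjusted p = 2.46e-14). AHR, the receptor itself, was the 1 gene higher with SR4 (178 ± 5.34 against 131 ± 4.07 CPM). CYP1A1, the classical target, was barely detected, with 12 counts over the 3 SR4 libraries and 47 over the 3 lonidamine libraries. The TIPARP promoter holds 2 copies of the core bound by this receptor, GCGTG on either strand, which is in 32.2% of all windows and in 4 of 8 windows (50%) of the list. The window is chr3:156674340-156674589 on the plus strand, the first of 3 starts, with the copies in capitals. The windows of the other TIPARP starts hold no copy, and binding was not tested.
TIPARP: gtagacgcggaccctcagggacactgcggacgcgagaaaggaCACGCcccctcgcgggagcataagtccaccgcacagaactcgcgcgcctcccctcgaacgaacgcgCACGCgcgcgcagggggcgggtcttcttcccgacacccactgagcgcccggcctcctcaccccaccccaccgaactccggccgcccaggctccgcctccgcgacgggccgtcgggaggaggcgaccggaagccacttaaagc

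Targets of MondoA, a factor that responds to glucose 6-phosphate, went both ways, with 2 of 5 higher with each compound. TXNIP and ARRDC4, arrestin-like proteins that limit glucose uptake, were higher with lonidamine. TXNIP had 0.838, 1.06 and 1.03 CPM with SR4 and 4.90, 7.95 and 5.67 CPM with lonidamine, low levels that rest on 28 and 213 counts (log2 difference -2.64, SE 0.26, adjusted p = 9.10e-10). ARRDC4 had 4.16 ± 0.203 and 9.60 ± 0.854 CPM. KLF10 and KLF11, zinc finger repressors that TGF-beta also raises, were 2.24-fold and 2.32-fold higher with SR4. The ARRDC4 promoter holds 1 E-box, CACGTG, a palindrome found in 6.34% of all windows and in 2 of 7 windows (28.6%) of 4 genes of the list. The other window that holds it belongs to KLF11, which was higher with SR4, and the TXNIP windows hold none. Binding was not tested. The ARRDC4 window is chr15:97960453-97960702 on the plus strand, with the E-box in capitals.
ARRDC4: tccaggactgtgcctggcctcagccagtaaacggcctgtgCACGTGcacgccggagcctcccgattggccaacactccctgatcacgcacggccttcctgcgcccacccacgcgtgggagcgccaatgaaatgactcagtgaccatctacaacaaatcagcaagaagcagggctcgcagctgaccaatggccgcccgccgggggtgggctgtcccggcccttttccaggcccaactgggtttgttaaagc

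Other stress genes were called in both directions. Of 25 NRF2 targets 13 were higher with SR4 and 7 with lonidamine. UGDH, which makes UDP-glucuronate, stood at 289 ± 5.67 CPM with SR4, 91.7 ± 0.719 CPM with lonidamine and 354 CPM with vehicle (log2 difference 1.66, SE 0.042, adjusted p = 2.70e-22), and TXNRD1, a thioredoxin reductase, at 1956 ± 34.03 and 1139 ± 27.7 CPM. HMOX1, heme oxygenase, was far above vehicle (83.1 CPM) with both, at 596 ± 29.6 and 485 ± 10.2 CPM. In autophagy, GABARAPL1, an ATG8 family protein, was 4.70-fold higher with SR4, within a list that gave 12 of 28 in each direction. Tubulins were higher with lonidamine in 7 of 11 cases and higher with SR4 in 3. TUBA1A was below vehicle with SR4 and above it with lonidamine (44.8, 51.9 and 41.6 CPM with SR4, 156, 153 and 163 CPM with lonidamine, 120.1 CPM with vehicle). Of 17 cytosolic heat shock genes 8 were higher with lonidamine and 4 with SR4, and DNAJA1, a co-chaperone, was 1.80-fold higher with lonidamine. Of 23 interferon-stimulated genes 6 were higher with SR4 and 7 with lonidamine. IFI35, one of them, was 2.32-fold higher with lonidamine. Proteasome genes gave 9 and 8 of 31 and their log2 differences ran from -0.38 to 0.31. Nuclear-retained RNAs gave 4 of 6 higher with lonidamine, but for 4 of the 6 the libraries of the 2 groups overlapped. Of 8 ductal and epithelial markers tested 5 were higher with SR4, KRT7, KRT8 and KRT18 by 2.36-fold, 2.02-fold and 1.98-fold, and 1, the mucin MUC1, was 2.20-fold higher with lonidamine. The summed level of that list was below vehicle with both compounds, at 3902 CPM with vehicle, 2094 CPM with SR4 and 1136 CPM with lonidamine. Of 4 fibroblast markers COL1A1, a collagen chain, was 2.57-fold higher with lonidamine, THY1, a surface glycoprotein, was 1.89-fold higher with SR4, and 2 did not pass. THY1 did not pass the test against 1.5-fold. The summed level of the fibroblast list was 96.4 CPM with vehicle, 19.1 CPM with SR4 and 36.4 CPM with lonidamine.

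In BXPC3, the same comparison of 3 SR4 and 3 lonidamine libraries called fewer genes. There 2973 of 12920 genes were higher with SR4, or 23.0%, and 3060 with lonidamine, or 23.7%. The 2 lines share no libraries, and across 13930 genes the differences had a Pearson correlation of 0.148 and a Spearman correlation of 0.176, given as a description over genes. Of the genes called at least 2-fold higher with SR4 in a model of all 24 libraries, 96 were shared, which is 15.2% of 633 in PANC1 and 14.4% of 665 in BXPC3, while 14 of the PANC1 genes were called the other way in BXPC3. On the lonidamine side 30 were shared, 4.95% of 606 in PANC1 and 19.5% of 154 in BXPC3, and 23 were called the other way. Over all 13930 genes the BXPC3 calls at 2-fold were 4.77% on the SR4 side and 1.11% on the lonidamine side. The difference of the differences was itself tested, and SR4 minus lonidamine was larger in PANC1 for 2908 genes, or 20.9%, and smaller there, by sign, for 3516, or 25.2%.

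Cholesterol synthesis genes had opposite calls in the 2 lines. In BXPC3 17 of its 24 genes were higher with SR4 and 2 with lonidamine, with a median of 0.25, and all 24 had a smaller difference in PANC1 by the test between lines. Among YAP targets the order was turned as well, 17 of 20 being higher with lonidamine in BXPC3 and 17 having a larger difference in PANC1. CYR61 had 138 CPM with SR4 and 419 CPM with lonidamine in BXPC3, the opposite of its order in PANC1 (difference between lines 3.77, SE 0.055, adjusted p = 1.59e-36 by edgeR's quasi-likelihood test). Ribosome biogenesis had 19 of 28 genes higher with lonidamine in BXPC3 and 27 with a larger difference in PANC1. Glycolysis had 10 of 21 higher with lonidamine in BXPC3 and 15 with a larger difference in PANC1, HK2 among them (126 CPM with SR4 and 192 CPM with lonidamine in BXPC3). Interferon-stimulated genes were higher with SR4 in 22 of 22 cases in BXPC3, and 20 of 23 had a smaller difference in PANC1. In BXPC3 36 of 37 G2/M genes and 40 of 44 G1/S genes were higher with SR4. By the test between lines, 19 G2/M genes had a smaller difference in PANC1 and 5 a larger one, and for G1/S these were 12 and 7. PSAT1 and CYP1B1 were higher with lonidamine in both lines. PSAT1 had 480.3 CPM with SR4 and 743 CPM with lonidamine in BXPC3, and CYP1B1 had 5.38 and 87.7 CPM.

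**Figure D4:**
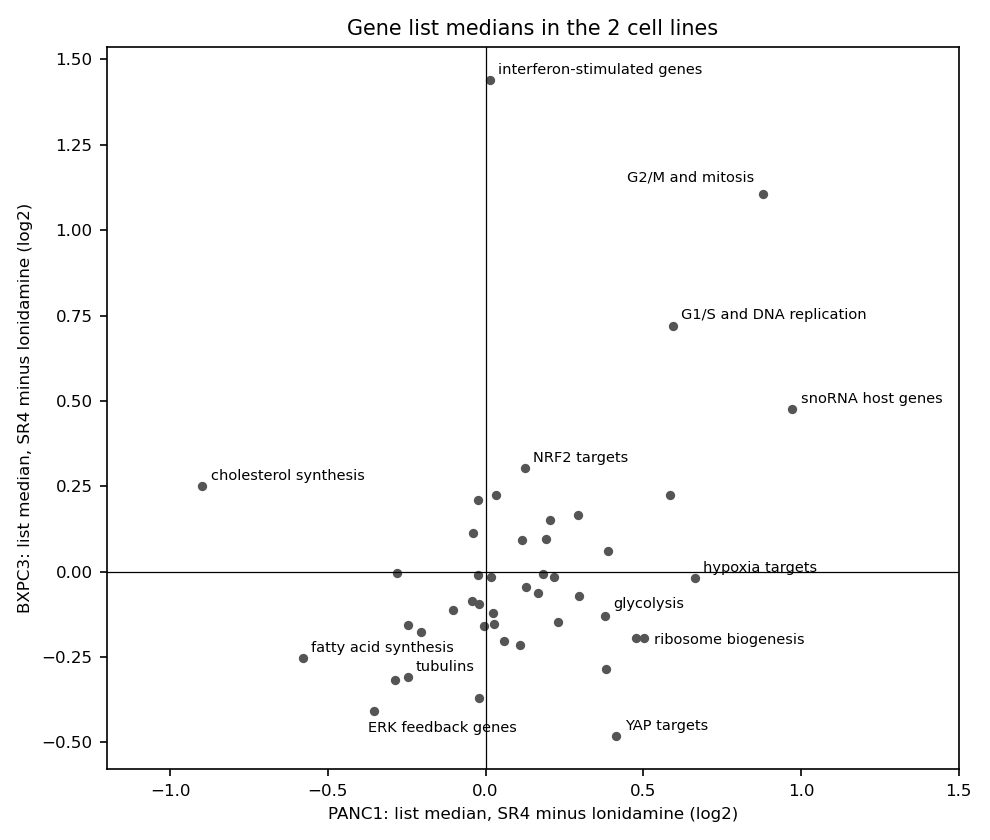
Median SR4 minus lonidamine difference (log2) of each of 45 gene lists with at least 10 genes tested in each line, in PANC1 (horizontal) and BXPC3 (vertical), 1 point per list. Cell division lists lie high in both lines, cholesterol synthesis and YAP targets lie on opposite sides of zero in the 2 lines, and interferon-stimulated genes lie near zero in PANC1 and high in BXPC3.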

How the data were processed

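RNA of PANC1 and BXPC3 cells, given vehicle, SR4, lonidamine or both for 24 h, was sequenced in 3 libraries per group and line. The authors deposited 1 table of raw gene counts per line, which also holds coordinates and gene lengths. The submitters' processing notes name STAR 2.7.8a, Partek and DESeq2 without giving their roles, and GRCh38. For the counting tool, the annotation and the use of strand, nothing is stated in the sources used here. One BXPC3 SR4 column carries a number that no label of its group has, and it was used as a replicate of that group without a number.

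Counts were tested with edgeR 4.0.16 in R 4.3.3 (TMM scaling, filterByExpr at its minimum count of 10, quasi-likelihood F test, Benjamini-Hochberg adjustment over all genes tested). All 12 PANC1 libraries entered 1 model of 4 groups and the contrast was SR4 minus lonidamine. The test between lines used all 24 libraries in 1 model. Alternatives were DESeq2 1.42.0, its size factors, no filter, only the 6 libraries compared, a replicate block, a test against a 1.5-fold change and each replicate left out. The adjusted p threshold was 0.05. Printed CPM use TMM-scaled library sizes.

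Gene lists and members were chosen with earlier results of these data known. Named genes were the 10 largest differences per direction (mean log2 CPM of at least 2, libraries not overlapping), the 5 smallest adjusted p per direction, up to 4 called members of each list by p and the one with the largest difference, a fixed panel, and the 5 largest line differences per direction. Replicate libraries differed by more than counting noise, with a chi-square per degree of freedom of at least 1.35 in PANC1, so none was counted as a repeat of another. On simulated counts, 80% of planted log2 differences of 0.5 and 89% of those of 1 were recovered over 12366 genes, with 7 false calls among 176. There 100 genes were changed at each size and all others were left unchanged. In the data most genes were called, so the share of false calls does not carry over to them. Some items are not reported here.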

Additional observations from a re-analysis of the deposited data

Results flagged for a closer look

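Of the 292 genes named by the rules above, 245 differed between the lines. Over all 13930 genes 20.9% had a larger SR4 minus lonidamine difference in PANC1 and 25.2% a smaller one. The rules took genes partly by their calls in PANC1 and by the largest line differences, so the 245 is no result about the named genes. Of the 245, 74 were also called in opposite directions in PANC1 and BXPC3, 44 higher with SR4 in PANC1 and 30 higher with lonidamine there. Over all 13930 genes, with calls from the model of all 24 libraries, 1395 did so. These split evenly, 698 higher with SR4 in PANC1 and 697 higher with lonidamine there. The 15 of the 74 with a log2 difference of at least 1 in PANC1 and 0.5 in BXPC3, floors chosen after their values were seen, are given here. The difference between the lines was itself tested with edgeR's quasi-likelihood test in the model of all 24 libraries. Values below are that difference, PANC1 minus BXPC3, on the log2 scale.

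Of these 15, 8 were higher with SR4 in PANC1 and with lonidamine in BXPC3. The matrix protein CYR61 had a difference between lines of 3.77 (2.20 in PANC1, -1.60 in BXPC3), and AMOTL2 had one of 2.38 (1.71 and -0.70). ABCA1, the cholesterol exporter, differed by 3.98 (2.14 and -1.87). HK2 differed by 2.29 (1.71 and -0.61) and NDRG1 by 2.47 (1.20 and -1.31). FOSL1 differed by 1.78 (1.30 and -0.51) and the keratin KRT8 by 1.59 (1.01 and -0.61). KRT17 differed by 6.77, but its PANC1 side rests on 47 counts over 3 SR4 libraries and 1 over 3 lonidamine libraries.

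The reverse order, higher with lonidamine in PANC1 and with SR4 in BXPC3, was found for 7 of the 15. IDH1 differed by -2.11 (-1.56 and 0.51) and TP53INP1, a p53 target, by -2.10 (-1.33 and 0.73). Among interferon-stimulated genes, IFI35 differed by -2.60 (-1.22 and 1.35) and SAMD9 by -3.24 (-1.46 and 1.75). HIST1H2AG, a histone gene, differed by -1.91 (-1.37 and 0.51). The PANC1 libraries of the 2 groups overlapped for KCNQ1OT1, whose difference was -2.49 (-1.19 and 1.26). GALNT12 differed by -3.75 (-1.01 and 2.71), and its PANC1 call was lost when SR4 replicate 1 or 3 or lonidamine replicate 1 or 2 was left out, with adjusted p between 0.0759 and 0.166, and under DESeq2's test, with adjusted p = 0.0827.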

How the results depend on the processing

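Counts of genes called in PANC1 kept within 1.5 times of their main values under DESeq2's test (3894 higher with SR4, 3724 higher with lonidamine), its size factors, no filter on low counts and a fit of only the 6 libraries compared. The test against a 1.5-fold change left 925 genes higher with SR4 and 797 higher with lonidamine, and 151 and 72 list entries, as a stricter question leaves fewer calls. Leaving out 1 library at a time gave 3944 to 4125 and 3714 to 3925 genes, 562 to 619 and 483 to 546 at 2-fold, 558 to 588 and 283 to 306 list entries, 2638 to 2763 and 2581 to 2897 genes in BXPC3, and 2782 to 2831 and 3341 to 3423 between lines. No named gene reversed. The main model did not pair libraries by replicate number. Over all pairs of PANC1 groups, deviations from the group mean had a median correlation of -0.044 for the same number and 0.050 for different numbers. Between SR4 and lonidamine the same-number correlations were 0.181, 0.159 and -0.010. Those of different numbers ran from -0.204 to 0.108, so a fit with a replicate block is given beside the main one. With the replicate block 4154 and 4068 genes were called in PANC1, 2483 and 2543 in BXPC3 and 2727 and 3213 between lines. The call for SDHB, higher with SR4, was lost without SR4 replicate 2 or lonidamine replicate 3 (adjusted p = 0.147 and 0.106), and that for MEG3 without SR4 replicate 2 or lonidamine replicate 1 (adjusted p = 0.0724 and 0.211) or under DESeq2's test (0.0968). NDUFC1, one of the complex I genes higher with lonidamine, was lost under DESeq2's test, no filter and the replicate block (adjusted p = 0.120, 0.0761 and 0.0528) and without SR4 replicate 1 or 3 or lonidamine replicate 2 or 3 (0.0528 to 0.197). Genes with few counts, such as KRT17 and FGF21, are limited by depth.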
